A study of Mus musculus with 30 samples.

Results

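The genes described here make cholesterol and fatty acids, switch that synthesis on and off, or export cholesterol. They were taken from a list of 34 gene symbols, each measured by the microarray probe set that carried only that symbol and had the highest mean over all 30 arrays. Of the 34 listed genes, 33 were found this way among 18194 genes measured, and Acat2 was not. They fell into 6 genes of the mevalonate steps, 11 genes that turn farnesyl units into cholesterol, 4 genes that control SREBP (sterol regulatory element binding protein) or move sterol between membranes, 8 genes of fatty acid synthesis and 4 genes of cholesterol sensing and export. The choice used no difference between groups.

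The arrays were hybridized with RNA from CD11b+ cells pulled out with magnetic beads, 3 arrays in each of 10 groups. From BALB/c mice came healthy spleen, spleen and tumor of mice bearing C26-GM (a colon carcinoma line that makes the cytokine GM-CSF), tumor of mice bearing 4T1 (a mammary carcinoma line), fresh bone marrow, and bone marrow grown over 4 days in GM-CSF, together with IL-6 in one group and with G-CSF in the other. From C57BL/6 mice came healthy spleen and tumor of mice bearing EL-4 (a lymphoma line) or MCA203 (a fibrosarcoma line). The labels give no ages and name no altered gene in any host, and each tumor model is 1 transplantable line. Cells taken from tumors and spleens of such mice and cells grown with these cytokines are studied as myeloid-derived suppressor cells, and the design set the former against healthy spleen of the same strain and the latter against fresh marrow.

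Cells build cholesterol from acetyl-CoA by way of mevalonate, farnesyl diphosphate, squalene and lanosterol. When sterols run low in the endoplasmic reticulum, the transcription factor SREBP2 is released and turns on these enzymes, while its relative SREBP1c drives the enzymes of fatty acid synthesis. When sterols run high, oxysterols activate LXR (the liver X receptors), which turns on SREBP1c and the exporters ABCA1 and ABCG1. In macrophages, the desaturated fatty acids and sterols made in this way supply new membrane and set the lipid makeup of existing membrane.

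The promoters of a few members show the sequence features by which this control is known. The search for motifs ran on either strand in the 300 bases around each annotated start (250 before it and 50 after it) in RefSeq sequence of build GRCm38.p6. The motifs were the sterol element TCACNCCAC, the NF-Y box CCAAT, and an LXR type direct repeat, which is the half-site GGTNA, 5 bases and the half-site again. Of 33 measured genes, 25 had a promoter entry, and the 250 bases before the start of 5 of them are shown with all matches in capitals. They were picked as examples of the sterol element, paired NF-Y boxes or the direct repeat. Mvk, Mvd, Msmo1, Nsdhl, Hsd17b7, Ebp, Dhcr7 and Mylip also held 2 or more NF-Y boxes in a promoter and are not shown. Fdps, Fdft1, Sqle, Stard4, Scd1, Scd2, Fads1 and Abcg1 had no entry.
Hmgcs1, plus strand of chr13:119690101-119690350: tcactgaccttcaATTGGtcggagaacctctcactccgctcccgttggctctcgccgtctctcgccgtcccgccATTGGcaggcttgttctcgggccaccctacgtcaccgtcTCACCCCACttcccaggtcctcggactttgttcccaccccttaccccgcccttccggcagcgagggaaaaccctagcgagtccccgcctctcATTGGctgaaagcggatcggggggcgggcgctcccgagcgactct
Idi1, plus strand of chr13:8885356-8885605: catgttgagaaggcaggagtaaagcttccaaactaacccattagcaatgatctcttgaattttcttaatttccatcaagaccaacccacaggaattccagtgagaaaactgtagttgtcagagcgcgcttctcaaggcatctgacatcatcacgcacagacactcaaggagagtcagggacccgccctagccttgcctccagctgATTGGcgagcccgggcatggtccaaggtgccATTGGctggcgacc
Fasn, minus strand of chr11:120824548-120824797: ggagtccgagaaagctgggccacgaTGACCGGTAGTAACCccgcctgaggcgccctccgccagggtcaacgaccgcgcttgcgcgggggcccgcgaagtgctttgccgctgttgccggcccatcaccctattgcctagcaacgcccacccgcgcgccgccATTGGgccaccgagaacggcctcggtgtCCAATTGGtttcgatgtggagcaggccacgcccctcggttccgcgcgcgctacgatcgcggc
Srebf1, most downstream of its 3 starts, minus strand of chr11:60210472-60210721: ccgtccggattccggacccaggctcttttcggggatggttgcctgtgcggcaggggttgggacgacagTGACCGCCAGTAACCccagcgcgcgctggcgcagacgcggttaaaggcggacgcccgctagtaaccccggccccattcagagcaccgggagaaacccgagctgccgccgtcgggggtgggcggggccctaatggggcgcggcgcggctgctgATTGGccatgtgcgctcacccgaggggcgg
Abca1, minus strand of chr4:53159896-53160145: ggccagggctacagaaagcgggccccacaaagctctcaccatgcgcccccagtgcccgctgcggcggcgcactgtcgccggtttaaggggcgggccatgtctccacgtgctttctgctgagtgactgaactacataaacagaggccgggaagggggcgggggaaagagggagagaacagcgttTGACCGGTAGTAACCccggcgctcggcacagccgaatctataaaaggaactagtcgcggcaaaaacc
The sterol element was matched in 1.24% of all 32851 promoters and, among members, only in Hmgcs1, where TCACCCCAC begins 137 bases before the start. A CCAAT box, on the opposite strand written ATTGG, lay in 37.4% of all promoters, in 21 of 31 member promoters and in 14 of the 17 promoters of sterol synthesis genes. Counted by gene, each of the 14 sterol synthesis genes with an entry had the box in at least 1 promoter, as did 6 of the 11 other members; several genes have more than 1 promoter, so these counts are not on the scale of the 37.4%. In Fasn the boxes that begin 62 and 59 bases before the start overlap each other. The direct repeat was matched in 0.718% of all promoters and in 3 member promoters. Abca1 and Fasn held the same 15 letters, TGACCGGTAGTAACC, 67 and 225 bases before the start, and Srebf1 held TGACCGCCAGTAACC 182 bases before it. These matches describe letters in the sequence and do not show that a factor was bound.

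All values are log2 expression levels from the RMA method, and a difference of 1 is 2-fold. A gene was called, and is said to have risen or fallen, at a Benjamini-Hochberg adjusted p below 0.05 and at least 2-fold in limma fitted to all genes and all 30 arrays; errors are standard errors (SE) of the difference from that fit. Nothing in the labels says that the 3 arrays of a group came from separate mice or cultures, so p-values measure the spread between arrays, which may be technical. The CD11b gene Itgam read 9.15 to 11.61 on every array. In bulk cells such as these, fewer cells of a type and less RNA per cell cannot be told apart. The female transcript Xist read 5.15 to 6.47 and the Y-linked Eif2s3y 8.11 to 8.95 on the 6 C26-GM arrays, against 10.06 to 11.12 and at most 2.70 on the other 24, so sex and C26-GM cannot be told apart. The text label of the healthy C57BL/6 spleens names BALB/c, yet H2-Ea, which C57BL/6 mice lack, read 6.61 to 6.93 there against at least 9.35 on every BALB/c array. Of the 6 culture arrays, 4 (GM-CSF with IL-6 replicates 1 and 2, GM-CSF with G-CSF replicates 1 and 3) had a narrow spread of values, with an interquartile range of 2.54 to 2.60 over all probe sets, against 3.28 to 3.37 on the other 2. The third C26-GM tumor array had an actin 3′ signal 2.42 above its 5′ signal, a sign of RNA degradation, against 0.01 to 0.68 on the other 29.

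Of the 33 genes, 23 were called in at least 1 of the 7 comparisons with a reference group (5 in tumor-bearing mice and 2 in culture). The share of all genes called in at least 1 of the 7 is not given here, so the 23 have no background to be set against. The 4T1 tumor infiltrate held the most calls. In 4T1 tumors 17 members rose and 2 fell, where 6.83% of all genes rose and 5.44% fell; the median member difference was 1.05 against -0.01 over all genes. In EL-4 tumors 4 members rose and 1 fell, against 6.42% and 4.4% of all genes, with medians of 0.30 and 0.02. In MCA203 tumors 5 rose and 1 fell, against 5.01% and 5.42%, with medians of 0.63 and 0.14. In C26-GM tumors 3 rose and 3 fell, against 4.26% and 7.13%, with medians of 0.32 and 0.11. In C26-GM spleens 2 rose and 3 fell, against 2.32% and 3.83%, with medians of 0.07 and 0.09. In culture 10 rose and 1 fell with GM-CSF and IL-6, against 5% and 9.07%, and 8 rose and 2 fell with GM-CSF and G-CSF, against 4.48% and 9.37%; the member medians were 0.58 and 0.55 and those of all genes 0.12 and 0.14. Of the falls with G-CSF 1 is Abca1, whose probe sets disagree there. Without C26-GM tumor replicate 1 only 1 member rose in C26-GM tumor, and without MCA203 replicate 2 only 3 rose in MCA203 tumor. Tumors were set against spleen, so tumor and organ cannot be told apart. Comparisons within a strain share their 3 reference arrays, as do both cultures, so their values are given side by side and are not independent of each other.

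**Figure D1:**
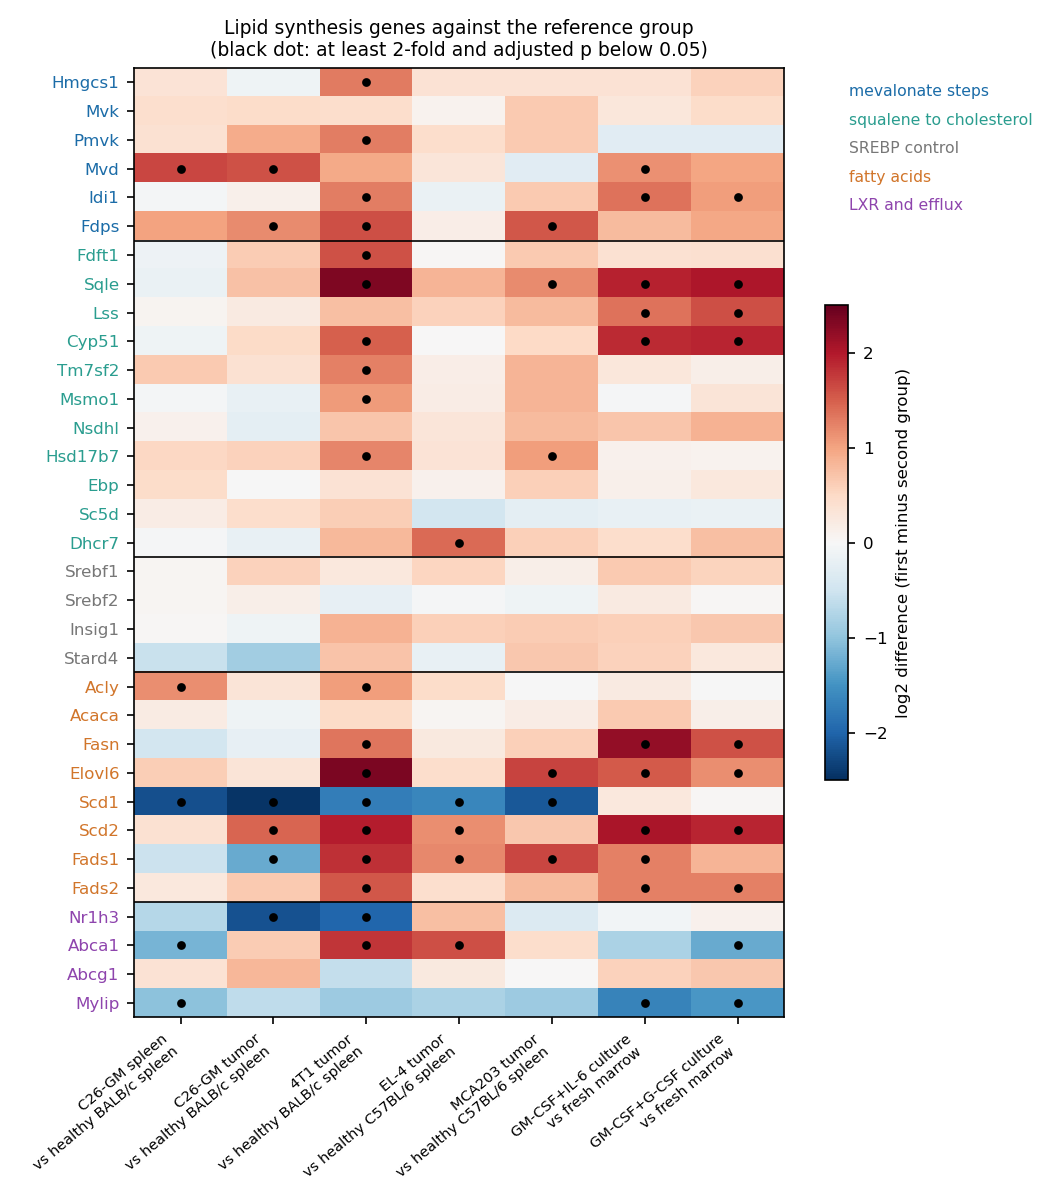
Log2 difference from the reference group (colour, first group minus second) for 33 lipid genes in 7 comparisons of 3 against 3 arrays; genes are grouped by role, and a black dot marks an adjusted p below 0.05 with at least 2-fold. Of the 33 genes 19 are dotted in the 4T1 column and 5 in the EL-4 column, and Scd1 is blue and dotted in all 5 tumor-mouse columns.

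In 4T1 tumors all 17 sterol synthesis genes had a positive difference, and for each of them every 4T1 array lay above every healthy BALB/c spleen array. Of these 17, 10 rose, where 6.83% of all genes rose, and 15 had an adjusted p below 0.05 at any fold. The shares of all genes with separated arrays, or with such a p at any fold, are not given here. Those counts therefore have no background to be set against. The 4T1 group had the highest mean of the 10 groups for 8 of the 17. With the mean of all probe sets per gene in place of the brightest, Fdps, Fdft1, Cyp51, Msmo1, Hsd17b7, Acly, Scd1 and Fads1 were not called in 4T1 tumor. The same setting ended the calls of Acly and Abca1 in C26-GM spleen, of Fdps and Fads1 in C26-GM tumor, of Fads1 in EL-4 tumor and of Fdps, Hsd17b7 and Fads1 in MCA203 tumor. In culture it ended those of Lss and Fads2 with either cytokine, Fads1 with IL-6, and Elovl6 and Abca1 with G-CSF. Between other groups it ended those of Scd2 for C26-GM tumor against spleen, Fdps and Elovl6 for EL-4 against MCA203 tumor, and Cyp51, Hsd17b7 and Abcg1 for marrow against spleen.

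Another centring moved the balance of calls over all genes. Centred on 9 housekeeping genes, 759 genes rose and 1257 fell in EL-4 tumor in place of 1168 and 800, and Scd2 and Fads1 were no longer called there. The same centring gave 985 up and 1066 down in C26-GM tumor in place of 775 and 1298, 530 and 2541 with IL-6 in place of 910 and 1650, and 541 and 2203 with G-CSF in place of 816 and 1704. It ended the calls of Mvd and Fads2 with IL-6 and of Idi1 and Elovl6 with G-CSF.

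The mevalonate steps were led in 4T1 tumors by Fdps, Hmgcs1, Idi1 and Pmvk. Hmgcs1, the HMG-CoA synthase that opens the pathway, read 8.09, 8.04 and 8.06 in healthy BALB/c spleen and 9.42, 9.36 and 9.33 in 4T1 tumor, and it rose by 1.31 (SE 0.29, adjusted p = 0.000853). The groups did not overlap, and its other 3 tumor groups and both cultures gave differences of -0.12 to 0.57, none called. Idi1, which isomerizes the isoprene unit, read 7.39, 7.09 and 7.08 in healthy BALB/c spleen against 8.55, 8.40 and 8.47 in 4T1 tumor, a rise of 1.29 (SE 0.27, adjusted p = 0.000487). In C26-GM tumor Idi1 read 7.11, 7.04 and 7.80, which overlapped the healthy spleens. Among C57BL/6 groups it read 7.80, 7.61 and 7.54 in healthy spleen, 7.70, 7.59 and 7.16 in EL-4 tumor and 8.58, 8.66 and 7.68 in MCA203 tumor, and neither difference was called. Pmvk, the phosphomevalonate kinase, rose in 4T1 tumor by 1.27 (SE 0.28, adjusted p = 0.000922), and Mvk, the mevalonate kinase, was called in no comparison, with differences of 0.09 to 0.65 over the 7.

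Fdps, which makes farnesyl diphosphate for both sterols and protein prenylation, rose in 3 tumor groups. It read 7.51, 7.15 and 7.51 in healthy BALB/c spleen and 9.20, 8.95 and 8.87 in 4T1 tumor, a rise of 1.62 (SE 0.40, adjusted p = 0.00314). The C57BL/6 arrays read 7.82, 7.04 and 7.48 in healthy spleen and 9.08, 9.22 and 8.67 in MCA203 tumor, a rise of 1.54 (SE 0.40, adjusted p = 0.00523), while EL-4 tumor at 7.77, 7.60 and 7.48 overlapped healthy spleen. In C26-GM mice the arrays of 1 group parted by nearly 2 units. Fdps read 9.28, 9.11 and 7.34 in C26-GM tumor and 9.29, 8.57 and 7.33 in C26-GM spleen, so that the third array of each lay at the level of healthy spleen. The call in C26-GM tumor (1.18, SE 0.40, adjusted p = 0.0296) was lost without any 1 of the healthy spleen arrays or without tumor replicate 1 or 2, and without the third tumor array the difference was 1.80. In C26-GM spleen the difference of 1.01 (SE 0.40) was not called, at an adjusted p of 0.104, and was called once the third C26-GM arrays were left out.

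Mvd, the decarboxylase that yields isopentenyl diphosphate, differed most in C26-GM mice. It read 6.29, 6.12 and 6.05 in healthy BALB/c spleen, 7.65, 7.79 and 8.05 in C26-GM spleen and 7.87, 7.56 and 7.78 in C26-GM tumor. The rises of 1.68 (SE 0.24, adjusted p = 8.02e-06) and 1.59 (SE 0.24, adjusted p = 7.28e-06) kept every C26-GM array above every healthy one. In 4T1 tumor it read 7.03, 7.29 and 6.95, also without overlap, and its difference of 0.94 fell short of 2-fold. Mvd in C57BL/6 mice read 6.72, 6.58 and 6.43 in healthy spleen, 6.78, 7.21 and 6.64 in EL-4 tumor and 6.53, 6.58 and 5.80 in MCA203 tumor, with overlapping groups.

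Among the steps from farnesyl units to cholesterol, Sqle had the largest difference in 4T1 tumor. Sqle, the squalene epoxidase that is a rate-limiting step of the later pathway, read 6.32, 6.15 and 6.15 in healthy BALB/c spleen and 8.68, 8.45 and 8.49 in 4T1 tumor, a 5.04-fold rise (log2 2.33, SE 0.26, adjusted p = 5.61e-08). C26-GM tumor at 6.85, 6.95 and 7.04 lay between them without overlap, and its difference of 0.74 was not called; C26-GM spleen read 5.69, 6.20 and 6.23 and overlapped the healthy spleens. Sqle in C57BL/6 mice read 6.95, 6.25 and 6.59 in healthy spleen, 7.92, 7.40 and 7.0 in EL-4 tumor and 7.94, 8.19 and 7.23 in MCA203 tumor. Both tumors lay above healthy spleen on all arrays, and only the MCA203 difference was called (1.19, SE 0.26, adjusted p = 0.000884); without MCA203 replicate 2 it was 0.99 and under 2-fold.

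Cyp51, the lanosterol demethylase, read 6.01, 6.33 and 6.26 in healthy BALB/c spleen and 7.86, 7.57 and 7.65 in 4T1 tumor, a rise of 1.49 (SE 0.32, adjusted p = 0.000723). C26-GM tumor read 6.34, 6.62 and 7.06, just above the healthy range, and was not called. In C57BL/6 mice the healthy spleens read 6.88, 7.01 and 6.61, EL-4 tumor 7.17, 6.77 and 6.58 and MCA203 tumor 7.56, 7.74 and 6.67, and both tumors overlapped healthy spleen. Hsd17b7, a ketosteroid reductase of the demethylation steps, read 5.51, 5.31 and 5.56 in healthy BALB/c spleen and 6.77, 6.71 and 6.58 in 4T1 tumor, a rise of 1.23 (SE 0.23, adjusted p = 0.000174). Hsd17b7 in C57BL/6 mice read 5.72, 5.27 and 5.38 in healthy spleen and 6.51, 6.81 and 6.17 in MCA203 tumor. That rise of 1.04 (SE 0.23, adjusted p = 0.00128) lay at the 2-fold limit and was not called without MCA203 replicate 2 or without healthy replicate 2. In 4T1 tumor the other Hsd17b7 probe sets gave 0.60, 0.81 and -0.09. Without probe sets whose names carry an x, s or a type, Hsd17b7 was called in neither tumor. Lss, the lanosterol synthase, read 5.79, 5.66 and 5.94 in healthy BALB/c spleen and 6.57, 6.55 and 6.54 in 4T1 tumor. The arrays did not overlap, and the difference of 0.75 (SE 0.16, adjusted p = 0.000527) was under 2-fold.

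Of the other members of this stretch, 3 rose in 4T1 tumor. Fdft1, the squalene synthase, rose by 1.58 (SE 0.30), Tm7sf2, a sterol reductase, by 1.25 (SE 0.19), and Msmo1, a methylsterol oxidase, by 1.07 (SE 0.28), with adjusted p of 0.000165, 8.43e-06 and 0.00403. Msmo1 was not called without 4T1 replicate 1 or without the x, s and a types of probe set. Nsdhl, Dhcr7, Sc5d and Ebp, which act in the last demethylation, desaturation and isomerization steps, had differences of 0.69, 0.81, 0.62 and 0.36 and were not called. Dhcr7, the final reductase that also decides between cholesterol and vitamin D precursors, rose in EL-4 tumor, by 1.41 (SE 0.21, adjusted p = 1.17e-05), and it was the only sterol synthesis gene called there.

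**Figure D2:**
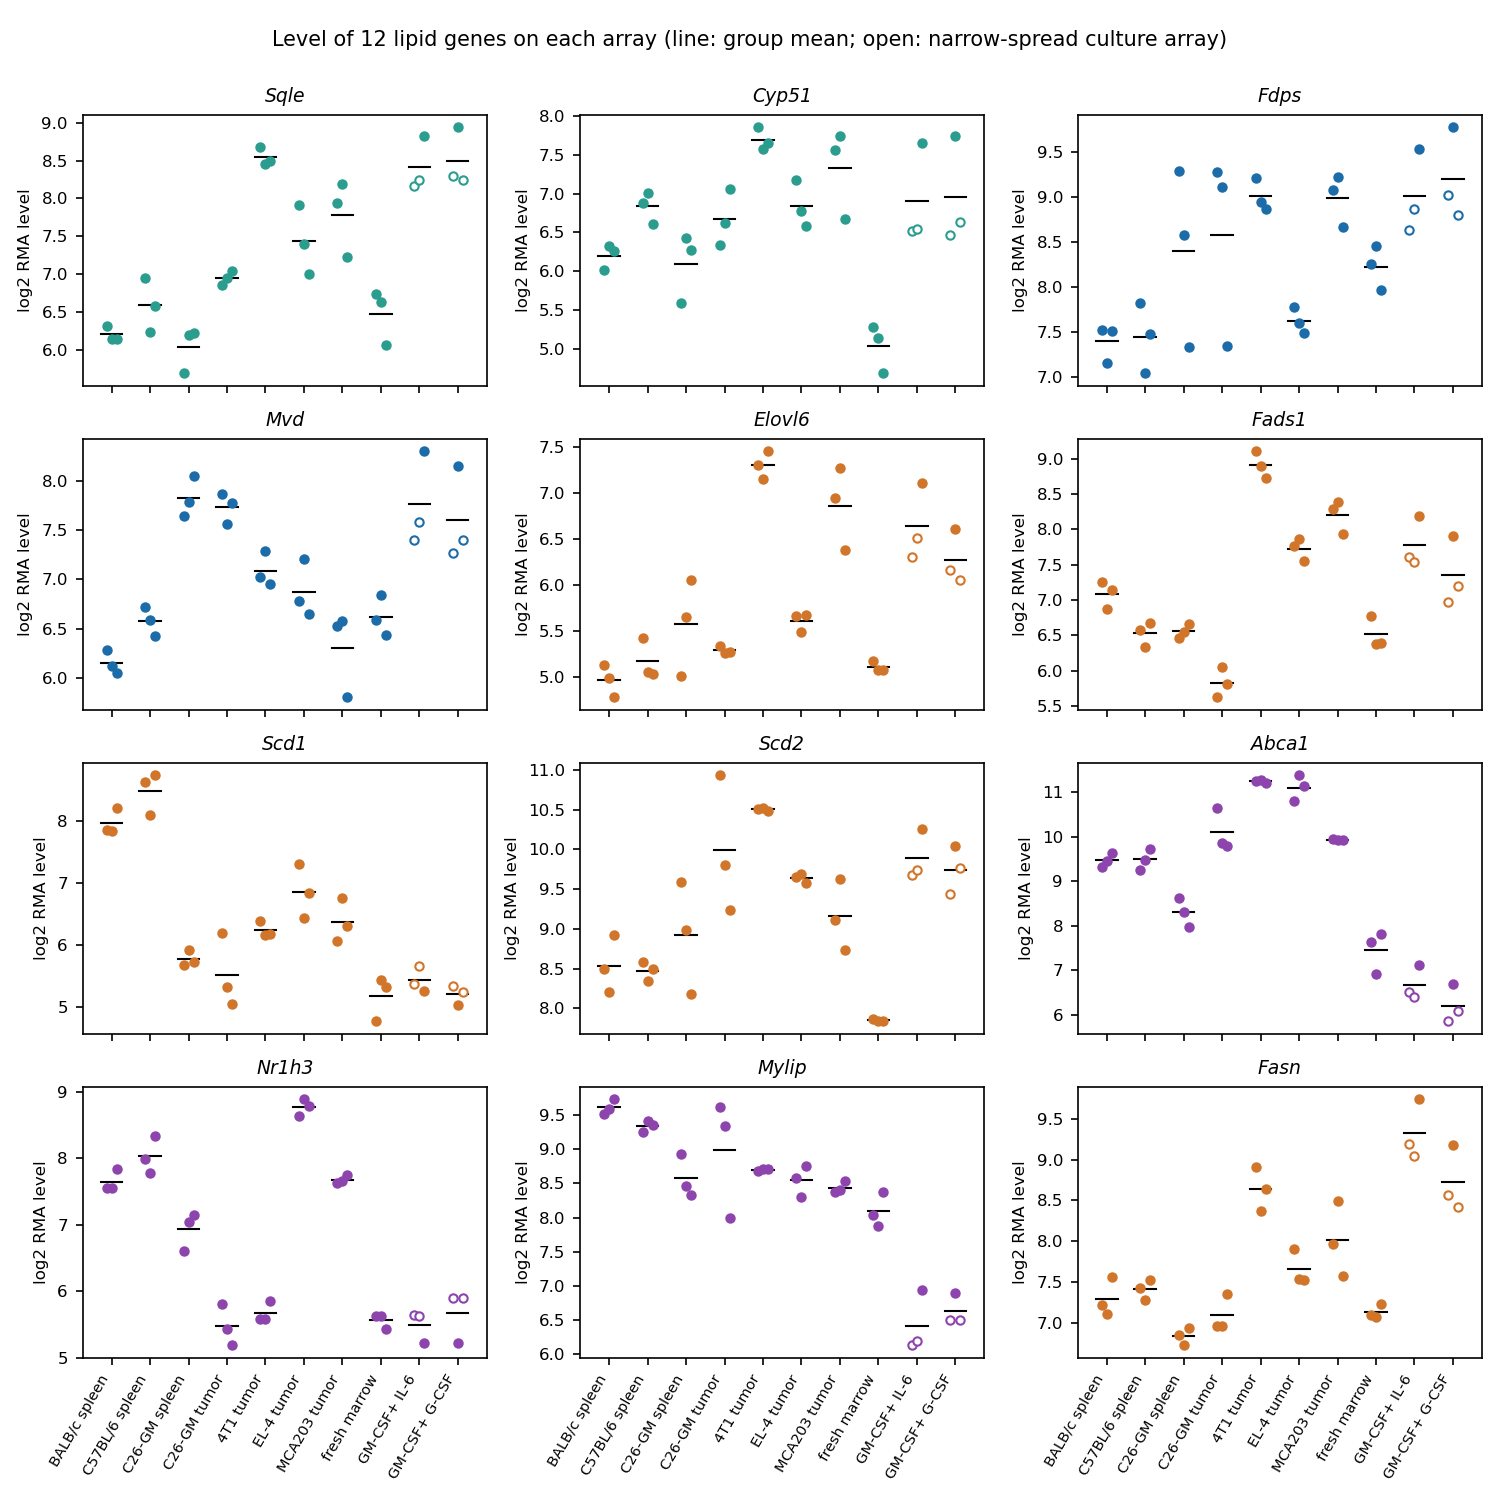
Log2 RMA level of 12 lipid genes on each of 30 arrays, by group; points are arrays, lines are means of 3 arrays, and open points are the 4 culture arrays with a narrow spread of values. Sqle is at 8.45 or above on all 4T1 arrays and at 6.32 or below on all healthy BALB/c spleen arrays, Scd1 is highest in both healthy spleens, and the third C26-GM arrays stand apart for Fdps.

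The sterol and fatty acid members given without array values kept their 10 group means within these ranges: Mvk 6.06 to 6.74, Pmvk 6.62 to 7.90, Fdft1 6.60 to 8.31, Tm7sf2 5.95 to 7.47, Msmo1 7.40 to 8.66, Nsdhl 7.40 to 8.39, Ebp 8.52 to 9.30, Sc5d 7.13 to 8.22 and Dhcr7 5.79 to 7.38. Fasn, at 6.83 to 9.33, had the widest range of the fatty acid genes given this way, beside Acly (9.78 to 10.94), Acaca (7.13 to 7.87) and Fads2 (4.88 to 6.54).

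The genes of SREBP control and sterol transport were called in none of the 7 reference comparisons. Srebf1 and Srebf2 encode the 2 SREBP proteins, and Insig1 holds SREBP back when sterols are high. Stard4 is a sterol carrier between membranes. They gave 28 results, of which 0 were called in limma, 12 had an unadjusted p under 0.05 and 9 an adjusted p under 0.05. The shares of all genes called are given above for each comparison, and those at a p threshold alone are not given here. Srebf2 had the narrowest range, from -0.20 in 4T1 tumor to 0.22 in culture with IL-6. Insig1, itself an SREBP target, had its largest difference in 4T1 tumor (0.87, SE 0.29, adjusted p = 0.0275). Stard4 differed by 0.72 in 4T1 tumor and by -0.87 in C26-GM tumor, and every 4T1 array lay above and every C26-GM tumor array below the healthy spleens. Between these tumors Stard4 was called, at 1.59 higher in 4T1. These values are transcript levels; SREBP acts after cleavage of the protein, which the arrays do not measure.

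In fatty acid synthesis, 6 of 8 members rose and 1 fell in 4T1 tumor, where 6.83% of all genes rose and 5.44% fell. Elovl6, which lengthens palmitate, read 5.13, 4.98 and 4.78 in healthy BALB/c spleen and 7.31, 7.15 and 7.46 in 4T1 tumor, a 5.08-fold rise (log2 2.34, SE 0.23, adjusted p = 7.2e-09). Elovl6 in C57BL/6 mice read 5.42, 5.05 and 5.03 in healthy spleen, 6.95, 7.27 and 6.38 in MCA203 tumor and 5.66, 5.49 and 5.67 in EL-4 tumor. It rose in MCA203 tumor by 1.69 (SE 0.23, adjusted p = 2.25e-06), and EL-4 tumor, also above healthy spleen on all arrays, was not called at 0.44. C26-GM tumor at 5.34, 5.26 and 5.27 differed by 0.33 and was not called.

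Scd1 and Scd2 are stearoyl-CoA desaturases that make monounsaturated fatty acids, and where called in tumor-bearing mice they went in opposite directions. Scd1 read 7.86, 7.84 and 8.21 in healthy BALB/c spleen, 5.67, 5.91 and 5.73 in C26-GM spleen, 6.19, 5.31 and 5.05 in C26-GM tumor and 6.39, 6.16 and 6.17 in 4T1 tumor. Among C57BL/6 groups it read 8.63, 8.10 and 8.75 in healthy spleen, 7.31, 6.44 and 6.84 in EL-4 tumor and 6.06, 6.76 and 6.31 in MCA203 tumor. Every array of the 5 tumor-mouse groups lay below every healthy spleen array of its strain. Scd1 was 4.59-fold lower in C26-GM spleen, 5.48-fold lower in C26-GM tumor, 3.32-fold lower in 4T1 tumor, 3.10-fold lower in EL-4 tumor and 4.34-fold lower in MCA203 tumor, with adjusted p of 1.71e-08 to 1.5e-05. Scd1 was the only member to fall in all 5. Its other, dimmer probe set (mean level 4.07) gave -0.39, -0.44, -0.01, -0.38 and -0.83 in the same order, so the size of the fall rests on the brighter one.

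Scd2 read 8.49, 8.20 and 8.92 in healthy BALB/c spleen, 10.51, 10.52 and 10.48 in 4T1 tumor, and 10.94, 9.81 and 9.24 in C26-GM tumor. It rose by 1.96 (SE 0.32, adjusted p = 2.11e-05) in 4T1 tumor and by 1.46 (SE 0.32, adjusted p = 0.000857) in C26-GM tumor, with no overlap in either. The C26-GM tumor arrays spread over more than 1.5 units, and without replicate 1 the difference was 0.99 and not called. Scd2 in C57BL/6 mice read 8.59, 8.34 and 8.49 in healthy spleen and 9.65, 9.69 and 9.58 in EL-4 tumor, a rise of 1.17 (SE 0.32, adjusted p = 0.00655). MCA203 tumor at 9.11, 9.63 and 8.73 was above healthy spleen on all arrays and was not called.

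Fads1, the delta-5 desaturase that makes arachidonic acid, was called in 4 of the 5 tumor-mouse comparisons and in both directions. It read 7.25, 6.87 and 7.14 in healthy BALB/c spleen, 9.11, 8.89 and 8.72 in 4T1 tumor and 5.62, 6.05 and 5.81 in C26-GM tumor. The 3 groups did not overlap, and Fads1 rose by 1.82 (SE 0.21, adjusted p = 9.51e-08) in 4T1 tumor and fell by 1.26 (SE 0.21, adjusted p = 3.1e-05) in C26-GM tumor. In C57BL/6 mice it read 6.58, 6.34 and 6.68 in healthy spleen, 7.77, 7.86 and 7.55 in EL-4 tumor and 8.29, 8.38 and 7.94 in MCA203 tumor, rises of 1.20 and 1.68 (SE 0.21 each). A second Fads1 probe set (mean level 5.19) differed by only -0.04 in 4T1 tumor, -0.04 in C26-GM tumor, -0.16 in EL-4 tumor and 0.30 in MCA203 tumor. Fads2, the delta-6 desaturase of the same route, rose in 4T1 tumor by 1.55 (SE 0.13, adjusted p = 6.78e-10) and was not called in the other 4. Fasn, the fatty acid synthase, and Acly, which makes cytosolic acetyl-CoA for both routes, rose in 4T1 tumor by 1.35 (SE 0.22) and 1.05 (SE 0.21); Acly was not called there without 4T1 replicate 2. Acly also rose by 1.16 (SE 0.21, adjusted p = 0.000173) in C26-GM spleen, where Fasn had a difference of -0.46; the mean of the Acly probe sets differed there by 0.72 and was not called. Acaca, the acetyl-CoA carboxylase, was called in no comparison.

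The LXR and export genes divided. Nr1h3, which encodes LXR alpha, read 7.55, 7.55 and 7.84 in healthy BALB/c spleen, 5.58, 5.58 and 5.86 in 4T1 tumor and 5.80, 5.44 and 5.18 in C26-GM tumor. It fell by 1.97 (SE 0.19, adjusted p = 6.62e-09) in 4T1 tumor and by 2.17 (SE 0.19, adjusted p = 1.18e-09) in C26-GM tumor, with every tumor array below the healthy ones. Nr1h3 in C57BL/6 mice read 7.99, 7.77 and 8.33 in healthy spleen, 8.64, 8.89 and 8.79 in EL-4 tumor and 7.63, 7.67 and 7.75 in MCA203 tumor. EL-4 tumor lay above and MCA203 tumor below healthy spleen on all arrays, and neither difference (0.74 and -0.35) was called.

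Abca1, the LXR target that loads cholesterol onto apolipoprotein A-I, went the other way from Nr1h3 in 4T1 tumor. It read 9.33, 9.45 and 9.62 in healthy BALB/c spleen, 11.26, 11.28 and 11.21 in 4T1 tumor, 10.63, 9.86 and 9.79 in C26-GM tumor and 8.62, 8.31 and 7.96 in C26-GM spleen. Abca1 rose by 1.78 (SE 0.25, adjusted p = 3.2e-06) in 4T1 tumor and fell by 1.17 (SE 0.25, adjusted p = 0.00147) in C26-GM spleen, and C26-GM tumor lay above healthy spleen without being called. As the mean of its probe sets Abca1 in C26-GM spleen came to -0.97 and was not called (adjusted p = 0.0838 in limma). In C57BL/6 mice it read 9.24, 9.48 and 9.73 in healthy spleen, 10.79, 11.39 and 11.13 in EL-4 tumor and 9.95, 9.93 and 9.92 in MCA203 tumor; it rose in EL-4 tumor by 1.62 (SE 0.25, adjusted p = 1.67e-05). Abcg1, which hands cholesterol to high-density lipoprotein, was called in none of the 7 reference comparisons (-0.60 in 4T1 tumor, 0.82 in C26-GM tumor).

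Mylip, an LXR target whose ubiquitin ligase destroys the low-density lipoprotein receptor, had a negative difference in all 7 comparisons. It read 9.51, 9.59 and 9.73 in healthy BALB/c spleen and 8.93, 8.46 and 8.33 in C26-GM spleen, a fall of 1.03 (SE 0.27, adjusted p = 0.00869). Without healthy replicate 3, C26-GM spleen replicate 2 or replicate 3 that difference was not called. Mylip read 8.67, 8.71 and 8.71 in 4T1 tumor, below all healthy spleens, and 9.62, 9.33 and 7.99 in C26-GM tumor, where the arrays overlapped. In C57BL/6 mice it read 9.25, 9.42 and 9.36 in healthy spleen, 8.58, 8.31 and 8.76 in EL-4 tumor and 8.38, 8.40 and 8.53 in MCA203 tumor, below healthy spleen on every array and under 2-fold.

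Marker genes of myeloid and other cell types, and cell cycle genes, also differed in the same tumors. In 4T1 tumor 7 of 8 epithelial markers rose (median 3.17, summed level 11.83 to 12.49 against 7.91 to 7.97 in healthy spleen), as did 7 of 9 fibroblast markers (median 2.58, summed level 13.24 to 13.40 against 11.00 to 11.73) and 12 of 20 cell cycle genes (median 1.19, summed level 13.18 to 13.40 against 12.24 to 12.54). There 6 of 12 neutrophil granule genes fell, and of 11 macrophage markers 3 rose and 1 fell. In EL-4 tumor 7 epithelial markers rose (median 2.51, summed level 9.40 to 13.43 against 7.71 to 7.86), with 6 fibroblast, 6 of 8 T cell, 5 cell cycle and 3 macrophage genes, and 10 neutrophil genes fell. In MCA203 tumor 16 cell cycle genes (median 1.33, summed level 13.70 to 13.90 against 12.51 to 12.68), 5 macrophage, 5 fibroblast, 5 T cell and 3 epithelial genes rose, and 11 neutrophil genes fell. In C26-GM tumor 1 epithelial, 3 fibroblast and 0 cell cycle genes rose, and 6 macrophage genes fell against 2 that rose; the cell cycle median was 0.10. In each of the 4 tumors 6 of 7 B cell genes fell. Of 6 NK cell genes 6 fell in C26-GM tumor and 5 in 4T1 tumor, 3 rose and 1 fell in EL-4 tumor, and 2 rose in MCA203 tumor. Of 8 T cell genes 4 fell in C26-GM tumor and 4 in 4T1 tumor. In C26-GM tumor 5 of 12 neutrophil granule genes fell and 1 rose. Of 6 endothelial genes 2 rose in EL-4 tumor and 1 fell in MCA203 tumor. The shares of all genes called are given above for each comparison. In C26-GM spleen 7 cell cycle and 5 neutrophil genes rose, 6 of 7 B cell, 6 of 6 NK cell and 3 of 8 T cell genes fell, and of 11 macrophage markers 1 rose and 3 fell (median -0.72, summed level 14.26 to 14.37 against 14.94 to 15.03). Their part in the lipid gene differences was not tested.

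The difference between the 2 BALB/c tumors was tested directly. Of 33 members 10 were higher in 4T1 than in C26-GM tumor and 1 was lower at the call threshold, where 8.95% of all genes were higher and 3.9% lower; the member median was 0.73 against -0.11 over all genes. Fads1 differed most, 8.46-fold (log2 3.08, SE 0.21, adjusted p = 1.39e-11), followed by Elovl6 at 2.02 (SE 0.23), Sqle at 1.60 (SE 0.26), Stard4 at 1.59 (SE 0.20), Fasn at 1.55 (SE 0.22) and Hmgcs1 at 1.42 (SE 0.29). The second, dimmer Fads1 probe set differed by -0.01 between these tumors, so the Fads1 difference rests on the brighter one. Msmo1, Idi1, Abca1 and Cyp51 were higher in 4T1 by 1.26, 1.16, 1.15 and 1.02. Of these, Cyp51 had an adjusted p of 0.0156 and was not called without C26-GM tumor replicate 1 or 2 or without 4T1 replicate 1. Msmo1 was not called here without the x, s and a types of probe set. Abcg1 was the member that was lower, by 2.67-fold (adjusted p = 9.74e-07), with 8.86, 9.27 and 8.85 in 4T1 tumor and 10.58, 10.45 and 10.21 in C26-GM tumor. Scd1, Scd2 and Nr1h3 differed between these tumors by 0.72 (SE 0.25), 0.51 (SE 0.32) and 0.20 (SE 0.19) and were not called. Centred on housekeeping genes, 1161 genes were higher and 1029 lower in place of 1629 and 709, and Idi1, Cyp51 and Abca1 were not called. With the third arrays of both C26-GM groups left out, 13 members were higher and 1 was lower. Cell type markers and cell cycle genes differed in the same contrast. Higher in 4T1 tumor were 6 of 8 epithelial (median 2.91), 6 of 9 fibroblast (1.80), 6 of 11 macrophage (1.88) and 11 of 20 cell cycle genes (1.15). No gene of these lists was called lower. The summed level of the epithelial markers was 11.83 to 12.49 in 4T1 and 9.77 to 10.28 in C26-GM tumor, and that of the macrophage markers 15.39 to 15.55 and 13.55 to 13.97. Their part in these differences was not tested.

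**Figure D3:**
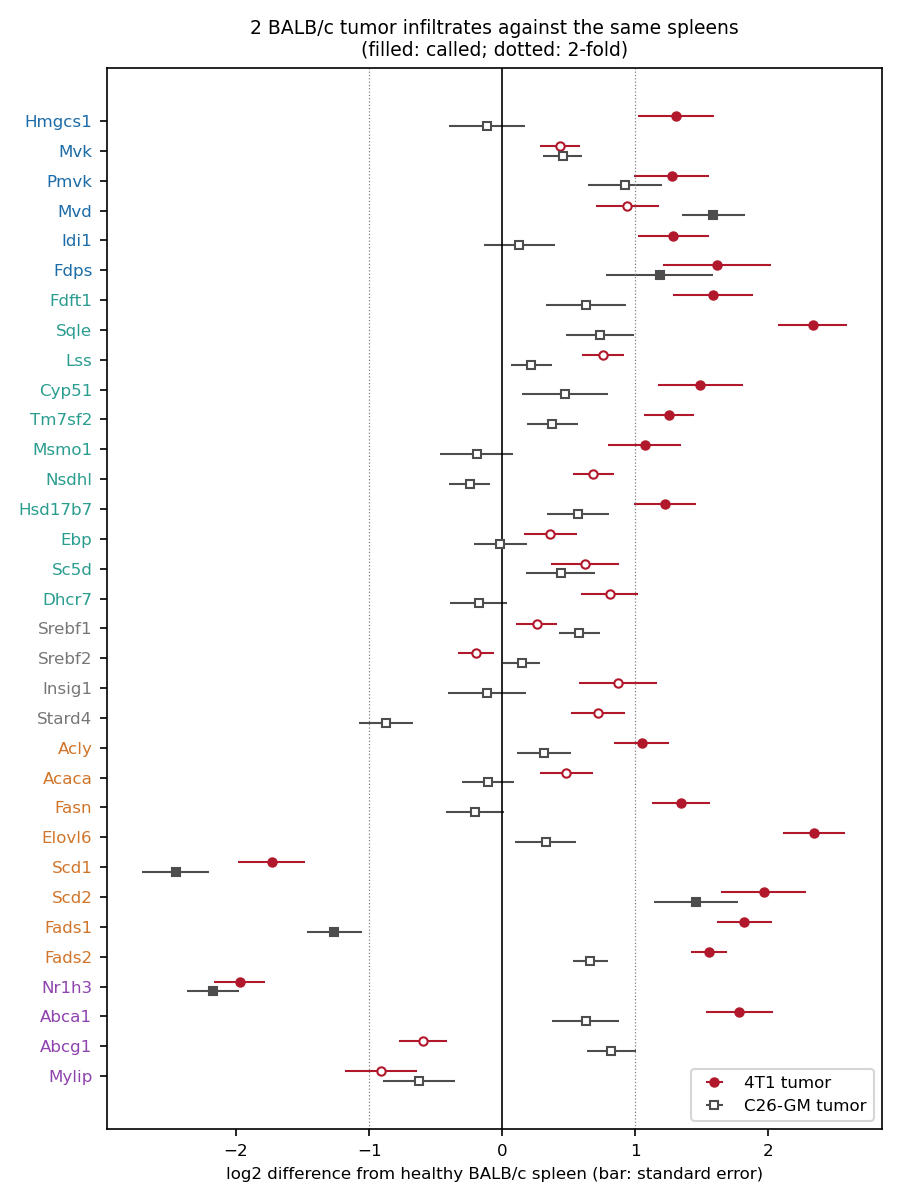
Log2 difference from healthy BALB/c spleen for 33 lipid genes in 4T1 tumor (circles) and C26-GM tumor (squares), 3 arrays a group; bars are 1 standard error, filled symbols are called, and dotted lines mark 2-fold. Fads1 is at 1.82 in 4T1 tumor and -1.26 in C26-GM tumor, while Scd1 and Nr1h3 lie left of -1 in both.

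Between the 2 C57BL/6 tumors, 2 members were higher in EL-4 and 2 higher in MCA203, where 3.88% of all genes were higher and 1.4% lower in EL-4. Nr1h3 and Abca1 were higher in EL-4 by 1.09 (SE 0.19, adjusted p = 0.000209) and 1.17 (SE 0.25, adjusted p = 0.00181). Elovl6 was 2.39-fold higher in MCA203 (adjusted p = 0.00033) and Fdps 2.59-fold higher (adjusted p = 0.0214); Fdps was not called without EL-4 replicate 2 or 3 or MCA203 replicate 1 or 2. Centred on 9 housekeeping genes, 447 genes were higher and 514 lower in EL-4 in place of 706 and 255, the median of all genes moved from -0.08 to -0.29, and Nr1h3 and Abca1 fell below the call threshold, at 0.89 and 0.96. Of the 17 sterol synthesis genes, 14 had a lower mean in EL-4 (median -0.48).

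Within C26-GM mice, 2 members were higher and 1 was lower in tumor than in spleen, where 2.79% of all genes were higher and 3.36% lower. Abca1 was 3.48-fold higher in tumor (log2 1.80, SE 0.25, adjusted p = 8.5e-06), and Nr1h3, at 6.61, 7.04 and 7.14 in spleen, was 2.75-fold lower in tumor (adjusted p = 3.83e-06), both without overlap. Scd2 read 9.58, 8.99 and 8.18 in C26-GM spleen, overlapped tumor and was called at 1.08 (SE 0.32, adjusted p = 0.02). That call was lost without spleen replicate 3 or tumor replicate 1. Centred on housekeeping genes, 692 genes were higher and 432 lower in place of 508 and 612, and Sqle was called. None of the 17 sterol synthesis genes was called as reported here. For 1 of them, Sqle at 0.91, limma gave an adjusted p below 0.05. Lower in tumor were 4 of 11 macrophage (median -0.64), 7 of 12 neutrophil granule (-3.07), 7 of 20 cell cycle (-0.87), 3 of 7 B cell and 1 of 8 T cell genes. Higher were 1 macrophage, 1 epithelial and 1 fibroblast marker. The part of these genes in the lipid gene differences was not tested.

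In culture, 5 of 17 sterol synthesis genes and 5 of 8 fatty acid genes rose over fresh marrow with IL-6, where 5% of all genes rose. With G-CSF 4 of each rose, where 4.48% of all genes did. Sqle read 6.75, 6.63 and 6.07 in fresh marrow, 8.17, 8.25 and 8.82 with IL-6 and 8.30, 8.94 and 8.25 with G-CSF, rises of 1.93 and 2.02 (SE 0.26, adjusted p = 1.5e-06 and 8.06e-07). Cyp51 read 5.28, 5.14 and 4.69 in fresh marrow, 6.51, 6.54 and 7.64 with IL-6 and 6.47, 7.74 and 6.64 with G-CSF, rises of 1.86 and 1.91 (SE 0.32). Lss read 5.61, 5.60 and 5.74 in fresh marrow, 6.82, 6.89 and 7.29 with IL-6 and 7.01, 7.67 and 7.09 with G-CSF, rises of 1.35 and 1.60 (SE 0.16). The 2 other Lss probe sets gave 0.50 and 0.31 with IL-6 and 0.45 and 0.16 with G-CSF, and with the mean of all 3, or without the x, s and a types of probe set, Lss was called in neither culture. For these 3 genes every culture array lay above every marrow array. Idi1 rose by 1.35 and 1.05 (SE 0.27), from 7.28, 7.06 and 6.93 in fresh marrow to 8.42, 8.12 and 8.80 with IL-6 and 7.67, 8.88 and 7.87 with G-CSF. Mvd rose with IL-6 by 1.15 (SE 0.24), from 6.58, 6.84 and 6.44 to 7.40, 7.59 and 8.31, and at 7.26, 8.15 and 7.40 with G-CSF it came to 0.99. Fdps and Hmgcs1 were not called; Fdps read 8.25, 8.45 and 7.96 in fresh marrow, 8.63, 8.87 and 9.53 with IL-6 and 9.02, 9.78 and 8.80 with G-CSF.

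Fasn had the largest difference of the members in culture with IL-6, 2.19 (SE 0.22, adjusted p = 1.59e-08), and rose by 1.59 (SE 0.22) with G-CSF. Scd2 read 7.86, 7.84 and 7.85 in fresh marrow, 9.68, 9.74 and 10.26 with IL-6 and 9.44, 10.04 and 9.76 with G-CSF, rises of 2.05 and 1.90 (SE 0.32). Elovl6 read 5.17, 5.08 and 5.07 in fresh marrow, 6.31, 6.51 and 7.11 with IL-6 and 6.16, 6.61 and 6.05 with G-CSF, rises of 1.54 and 1.17 (SE 0.23). Scd2 and Elovl6 were above marrow on all culture arrays. The other Scd2 probe sets gave 1.25 and 4.78 with IL-6 and 1.85 and 1.88 with G-CSF. The size of the Scd2 rise with IL-6 therefore depends on the probe set. Fads1 rose with IL-6 by 1.26 (SE 0.21), from 6.77, 6.37 and 6.40 to 7.60, 7.54 and 8.19, and was not called with G-CSF (6.97, 7.91 and 7.19; 0.84). Fads2 rose by 1.25 and 1.26 (SE 0.13). Scd1 was low in fresh marrow (4.76, 5.44 and 5.33) and in both cultures (5.03 to 5.67), with differences of 0.26 and 0.03.

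Mylip fell in both cultures, from 8.04, 7.87 and 8.37 in fresh marrow to 6.13, 6.19 and 6.95 with IL-6 and 6.50, 6.90 and 6.51 with G-CSF, by 1.67 and 1.46 (SE 0.27). No culture array reached the marrow range. Nr1h3 read 5.63, 5.63 and 5.43 in fresh marrow, 5.64, 5.63 and 5.21 with IL-6 and 5.89, 5.21 and 5.89 with G-CSF, differences of -0.07 and 0.10 that were not called. Abca1 read 7.64, 6.92 and 7.82 in fresh marrow, 6.51, 6.40 and 7.12 with IL-6 and 5.85, 6.68 and 6.07 with G-CSF, and was called lower with G-CSF (-1.26, SE 0.25, adjusted p = 0.000302). A second Abca1 probe set went the other way there, by 0.89, and its dimmest differed by 0.17, so no direction is given for Abca1 in culture. The call was also lost on the wide arrays described next and with a term for the narrow ones.

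The 4 culture arrays with a narrow spread of values differed from the other 2 for these genes. The mean level of the 17 sterol synthesis genes was 7.30 to 7.41 on the narrow arrays, 8.12 to 8.24 on the wide ones and 6.79 to 7.07 in fresh marrow. On the wide arrays alone 15 members rose and 1 fell with IL-6 and 17 rose and 1 fell with G-CSF; on the narrow arrays alone 9 rose and 2 fell and 7 rose and 2 fell. Sqle, Cyp51, Lss, Fasn, Elovl6, Scd2, Fads2 and Mylip were called in both cultures in either set, Idi1 with G-CSF and Mvd with IL-6 only with the wide arrays. Cyp51 with IL-6 came to 2.61 on the wide array and 1.49 on the narrow ones. These sets were formed after the arrays had been seen, each cytokine pair has both kinds, and the single wide array of a pair is assumed to vary like the other groups. Of 20 cell cycle genes 0 rose in either culture, and 1 fell with IL-6 and 5 with G-CSF, where 9.07% and 9.37% of all genes fell. Their summed level was 14.20 to 14.27 in fresh marrow, 13.49 to 14.13 with IL-6 and 13.18 to 13.87 with G-CSF. Of 12 neutrophil granule genes 7 fell with IL-6 and 5 with G-CSF, and of 9 fibroblast markers 4 and 6. The part of these genes in the lipid gene differences was not tested.

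**Figure D4:**
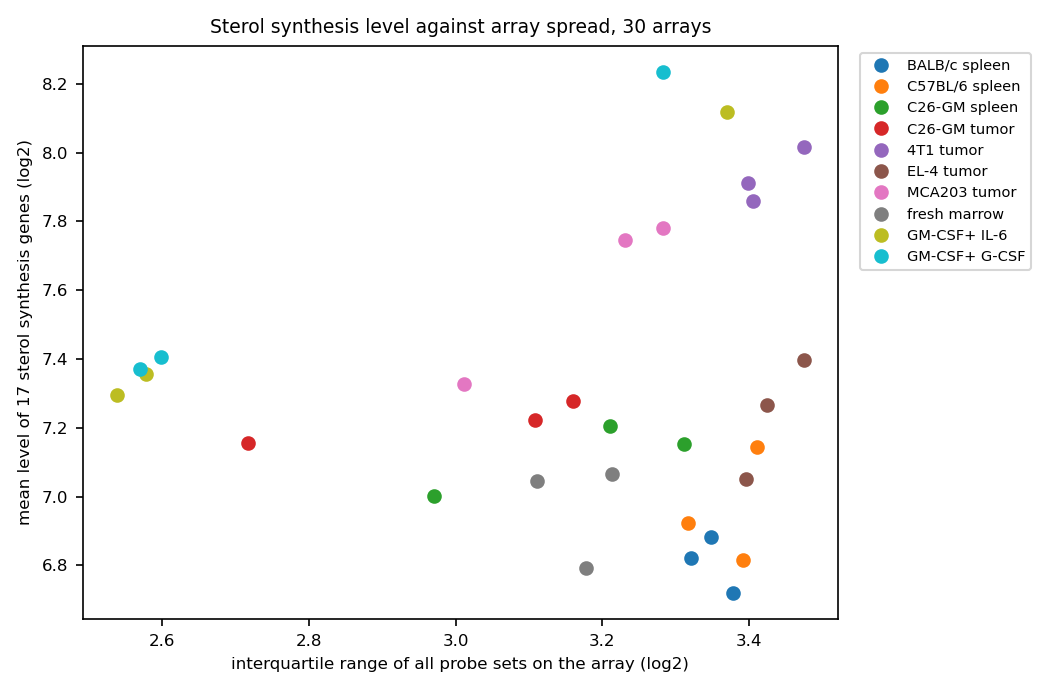
Mean log2 level of 17 sterol synthesis genes (vertical) against the interquartile range of all probe sets (horizontal) on each of 30 arrays, coloured by group. The 4 narrow culture arrays lie at 2.54 to 2.60 and 7.30 to 7.41, the 2 wide ones at 3.28 to 3.37 and 8.12 to 8.24, and the 3 4T1 tumor arrays at 7.86 to 8.02.

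Between the 2 cultures 0 of 33 members were called in limma, where 0.456% of all genes were higher with IL-6 and 0.198% lower, and 2 members had an unadjusted p under 0.05. On the probe sets used, the largest member difference was 0.60 (SE 0.22) for Fasn, with IL-6 the higher and overlapping arrays. Another Scd2 probe set differed from fresh marrow by 4.78 with IL-6 and by 1.88 with G-CSF. The arrays of the 2 cultures overlapped for all 33 members. Each culture holds both narrow and wide arrays, and the share of all genes with overlapping arrays is not given here. That count therefore has no background to be set against.

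The reference groups differed from each other as well. From healthy BALB/c spleen to fresh BALB/c marrow 1 member was higher and 6 were lower, where 5.76% of all genes were higher and 7.49% lower. All 4 LXR and export genes were lower in marrow: Nr1h3 by 4.24-fold, Abca1 by 4.03-fold, Mylip by 2.85-fold and Abcg1 by 2.19-fold, with adjusted p of 2.42e-09 to 7.23e-05; Abcg1 was not called without marrow replicate 2. Scd1 was 6.94-fold lower in marrow (adjusted p = 1.52e-09) and Cyp51 2.24-fold lower, the latter not called without marrow replicate 3. Cell type markers and cell cycle genes differed as well. In marrow 9 of 11 macrophage markers were lower (median -2.36, summed level 12.46 to 13.11 against 14.94 to 15.03). So were 6 of 7 B cell and 6 of 6 NK cell genes, while 10 of 12 neutrophil granule and 18 of 20 cell cycle genes were higher. Their part in the lipid gene differences was not tested. Hsd17b7, at 7.09, 6.94 and 6.60 in marrow, was 2.67-fold higher (adjusted p = 2.31e-05). Cultures and tumors are thus set against references that differ for these 7 members. Between healthy C57BL/6 and BALB/c spleens 0 members were called in limma, where 0.654% of all genes were higher and 0.742% lower in C57BL/6, and 3 members had an unadjusted p under 0.05. The largest difference was 0.74 (SE 0.26) for Sc5d.

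Further genes of the same pathways were counted from lists of 13 sterol, 17 fatty acid and 18 LXR and cholesterol handling genes. Of these, 8, 16 and 15 were measured and the rest were not analysed here. Beside the counts of every list, 6.83% of all genes rose and 5.44% fell in 4T1 tumor, and 4.26% and 7.13% in C26-GM tumor. The shares for the other comparisons are given above. In lists this short, 1 or 2 calls can lie near those shares. In the sterol list 1 gene rose and 1 fell in each of C26-GM, 4T1 and EL-4 tumors, 1 fell with IL-6 and 2 fell with G-CSF; in C26-GM spleen and MCA203 tumor limma called 0, with 1 and 2 at an unadjusted p under 0.05. Nus1, a subunit of the enzyme that makes dolichol, rose in C26-GM (1.01), 4T1 (1.41) and EL-4 tumors (1.26), and Lbr, a sterol reductase of the nuclear envelope, fell in 4T1 tumor (-1.14), EL-4 tumor (-1.01) and both cultures (-1.34 with IL-6, -1.44 with G-CSF). Ggps1, which makes geranylgeranyl diphosphate, fell in C26-GM tumor (-1.37) and in culture with G-CSF (-1.23). In the fatty acid list 4 genes rose and 2 fell in 4T1 tumor, led by Mlxipl, the carbohydrate-responsive factor ChREBP, at 1.63, Acsl4, an acyl-CoA synthetase of arachidonate, at 1.49, and Elovl7 at 1.46. In that list 3 rose and 1 fell in EL-4 tumor, 2 and 1 in MCA203 tumor and with IL-6, and 1 and 1 in C26-GM tumor and with G-CSF, and 1 fell in C26-GM spleen. Acss2, which makes acetyl-CoA from acetate, fell in C26-GM (-2.17), 4T1 (-1.39) and MCA203 tumors (-1.58). Elovl5, another elongase, fell in 4T1 (-1.20) and EL-4 tumors (-1.21), and in the latter Slc25a1, the mitochondrial citrate carrier, rose (1.17). In culture Elovl7 rose (2.03 with IL-6, 1.53 with G-CSF), and Tecr, the last enzyme of the elongation cycle, fell (-1.58 and -1.24).

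In the LXR and cholesterol handling list 4 genes rose and 5 fell in 4T1 tumor, 5 and 2 in EL-4 tumor, 2 and 4 in MCA203 tumor, 2 and 4 in C26-GM tumor and 1 and 2 in C26-GM spleen, and in culture 2 and 5 with IL-6 and 3 and 4 with G-CSF. Ch25h, which makes the LXR ligand 25-hydroxycholesterol, rose in all 4 tumors, by 1.65 in C26-GM, 4.69 in 4T1, 2.44 in EL-4 and 5.39 in MCA203 (SE 0.22 each), and in both cultures by 1.83 and 1.59. Cyp27a1, which makes 27-hydroxycholesterol, fell in all 5 tumor-mouse groups, by between 1.10 in EL-4 tumor and 2.98 in C26-GM tumor, and by 2.05 and 2.02 in culture. Plin2, which coats lipid droplets, rose in C26-GM spleen (1.64), C26-GM tumor (2.28), 4T1 tumor (1.14) and EL-4 tumor (2.18). Apoe, the apolipoprotein E that macrophages secrete, fell by 5.91 and 5.46 in culture and was higher in 4T1 than in C26-GM tumor by 3.30 (SE 0.31). Apoe is also one of 11 macrophage markers counted here, of which 6 fell and 3 or 4 rose in culture, and their part in this result was not tested. Cd36, a fatty acid scavenger receptor, rose in culture by 3.66 and 3.04 (SE 0.35) and 2.82-fold in EL-4 tumor, and fell in C26-GM, 4T1 and MCA203 tumors by 1.16, 1.16 and 1.06.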

How the data were processed

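The deposited table holds log2 expression values made by the authors with RMA, per the submitters' processing notes; its version was not given in the sources used here. The arrays are Affymetrix MOE430 2.0. Of 45101 probe sets, 34958 carried 1 gene symbol, 932 several and 9211 none in the platform annotation of GEO, and the symbol of 34754 of the former was found in RefSeq. Each gene took its 1-symbol probe set with the highest mean, which gave 18194 genes. Levels of different genes were not compared, since probe sets differ in response. The number of arrays, 3 a group, limits the precision.

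One linear model in limma 3.58.1 (R 4.3.3) covered all 30 arrays in 10 groups, with 1 spread per gene and 13 contrasts; p-values were Benjamini-Hochberg adjusted over all genes of a contrast. The script was tested on simulated data. The replicate numbers of the labels were not used as pairs. Single-array values are given for up to 4 members per role called in most of the 7 reference comparisons, ties by largest difference; Fasn, Dhcr7 and others are given by their difference. Other genes are a part of those called in each list, and not every large difference is named. Not named above are Apoc2 (-1.74 in EL-4 tumor) and Smpdl3a (-1.62 in MCA203 tumor), the lowest of the LXR list there. Members and lists were chosen with earlier results of these data known. Scaling, weights, probe sets, thresholds and left-out arrays were varied. All 33 measured members passed a filter on dim genes. Figures used Python 3.11.15 and matplotlib 3.10.9.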

Additional observations from a re-analysis of the deposited data

Results flagged for a closer look

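The direct comparison of 2 tumor lines in mice of 1 strain set apart 15 results, since the shared healthy spleens cancel and the contrast tests the difference of the tumor effects itself. 4T1 exceeded C26-GM tumor for Fads1 (3.08), Elovl6 (2.02), Sqle (1.60), Stard4 (1.59), Fasn (1.55), Hmgcs1 (1.42), Msmo1 (1.26), Idi1 (1.16), Abca1 (1.15) and Cyp51 (1.02), in log2 units from limma. Abcg1 was lower in 4T1 (-1.42). The second, dimmer Fads1 probe set differed by -0.01 in this contrast. EL-4 exceeded MCA203 tumor for Abca1 (1.17) and Nr1h3 (1.09) and was lower for Fdps (-1.37) and Elovl6 (-1.26). In all 15 every array of 1 tumor lay on the same side of every array of the other, and all 15 had been picked by the call itself. Sex differs between the C26-GM and 4T1 arrays, as Xist and Eif2s3y show, and cannot be told apart from the tumor there.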

How the results depend on the processing

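Of 87 called member results, 46 were called under every alternative run, 41 were lost under 1 or more, and 0 reversed. Of 234 recomputed counts of called members, 219 lay within 1.5 times the count reported; among those that leave out 1 array each, all did when both directions are counted together. By direction, leaving out 1 array moved 10 counts by more than 1.5 times: members up fell from 3 to 1 in C26-GM tumor and from 2 to 1 for C26-GM tumor against spleen without C26-GM tumor replicate 1, and from 5 to 3 in MCA203 tumor without its replicate 2. Members down went from 1 to 2 for C26-GM tumor against spleen without that same tumor array, from 2 to 1 for EL-4 against MCA203 tumor without EL-4 replicate 2 or 3 or MCA203 replicate 1 or 2, and from 1 to 2 with IL-6 without fresh marrow replicate 2 or IL-6 replicate 3. Counts moved further under 4 kinds of setting. With all probe sets averaged per gene, which brings in dim ones, the counts were 3 in C26-GM spleen, 11 in 4T1 tumor, 3 in MCA203 tumor and 4 in fresh marrow against spleen. With no minimum fold they were 13 in C26-GM tumor, 11 in EL-4 tumor, 17 in MCA203 tumor, 8 for C26-GM tumor against spleen, 23 for 4T1 against C26-GM tumor, 11 for EL-4 against MCA203 tumor and 17 in each culture. Chosen after seeing the data, a term for the narrow culture arrays gave 18 in each culture, and the wide arrays alone gave 18 with G-CSF. Centring on 9 housekeeping genes moved the median of all genes in EL-4 tumor from 0.02 to -0.24 and in culture with IL-6 from 0.12 to -0.14. In EL-4 tumor 759 genes rose and 1257 fell in place of 1168 and 800, and 2 members rose and 2 fell, Scd2 and Fads1 being lost. For EL-4 against MCA203 tumor it gave 0 members up and 4 down. A replicate block on the numbers in the labels changed no member call (19 in 4T1 tumor). That block fits 1 shift per number shared by all 10 groups, so it cannot test pairing within C26-GM mice, which was not tested. Same-numbered arrays deviated together, at a correlation over 0.1, in 10 of 39 pairs, and in no comparison in all 3 pairs. The mean correlation of same-numbered arrays over all groups was -0.01, and the numbers were not taken as pairing. The correlations were 0.37, 0.06 and 0.47 for C26-GM tumor against spleen, and 0.79, -0.85 and -0.80 between the cultures. Depth in the sense of reads does not apply, and 3 arrays a group leave smaller differences unresolved. The cause of these shifts was not tested.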

Other observations

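Several members had a further probe set that moved less or the other way. Cyp51 in 4T1 tumor came to 1.49 on the probe set used, 1.19 on the next and 0.24 on the dimmest, and Elovl6 came to 2.34, 1.85 and 0.05. Hmgcs1, by contrast, had 4 further probe sets that gave 0.71 to 1.28 in 4T1 tumor beside 1.31. Scd2 gave 2.06 and 2.64 on 2 other probe sets beside 1.96 in 4T1 tumor. In culture with IL-6 the same 2 gave 1.25 and 4.78 beside 2.05.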
